A study of Homo sapiens with 10 samples.

Results

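Molecular chaperones of the heat shock and endoplasmic reticulum (ER) families were measured in ST486, a line of human B cells from a Burkitt's lymphoma. Its cells had received, by lentivirus, either an shRNA to the kinase STK38 or a control shRNA without a target, and RNA was taken at 60 h. The members were probe sets whose annotation names a single gene with a symbol starting HSPA, HSPB, HSPD, HSPE, HSPH, HSP90, DNAJ, PDIA or FKBP, or one of P4HB, CALR, CANX, HYOU1, HSF1, HSF2, STIP1 and BAG1. They numbered 87 of the 12558 probe sets on the array and stood for 63 of its 8226 genes, of which 38 act in the cytosol or nucleus, 16 in the ER, 6 at mitochondria and 3 elsewhere or at a site not settled here. Each group held 5 Affymetrix HG-U95Av2 arrays, each from 5 ug of total RNA. Both groups carried a lentiviral vector, and no untransduced cells were compared. The STK38 shRNA was a single hairpin (Sigma TRCN0000010215), so loss of STK38 and any other action of the hairpin cannot be told apart. The control was Sigma SHC002. Nothing in the labels ties replicates to separate cultures, and p-values therefore measure only how these arrays scatter, possibly for technical reasons. In such bulk RNA, fewer cells expressing a gene and less of its RNA per cell cannot be told apart.

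Chaperones bind proteins that are not yet folded or have come unfolded. In the cytosol, HSP70 proteins take up clients delivered by J proteins, which stimulate HSP70's ATPase, nucleotide exchange factors release them, and the adaptor STIP1 passes some of them on to HSP90. The ER has its own set, with the HSP70 protein BiP (HSPA5), its exchange factor HYOU1, the lectin chaperones calnexin and calreticulin and the protein disulphide isomerases, and B cells draw on it to fold immunoglobulin. Mitochondria hold a separate HSP70, HSPA9, and the chaperonin HSPD1 with its lid HSPE1. HSF1 drives the heat shock genes in the cytosol, and XBP1, ATF6 and ATF4 drive ER genes in the unfolded protein response.

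STK38 itself was lower on every STK38 shRNA array. Its brightest probe set read 5.24, 4.80, 4.85, 4.92 and 5.28 (log2) on the non-target arrays, replicates 1 to 5, and 2.95, 2.90, 2.95, 2.46 and 2.88 on the STK38 shRNA arrays (limma adjusted p = 5.65e-08). STK38 shRNA replicate 4 stood apart: its mean correlation with its own group was 0.982, where the other 9 arrays had 0.992 to 0.996, and its 75th percentile was 3.53 where theirs were at least 3.91. Calls of genes tested with all arrays that change without it are given both ways. Without it 14 members were called lower, where all arrays gave 13. The added gene was a cytosolic member too dim to test with all arrays. Without this array 39.6% of members and 38.8% of all genes were called in either direction, against 35.8% and 31.0% with all arrays. Of 52 members also tested without it, 0 called genes turned sign or moved by over 1.5 times. Among those not called, 9 turned sign, all with differences of at most 0.095 in size, and 9 moved by over 1.5 times with the same sign. Of 7 B cell markers on the array, 5 were above background on every array (CD74, MS4A1, CD79A, CD79B and CD22), while PAX5 and CD37 were at background throughout. T cell, monocyte and erythroid markers (4, 3 and 2 genes) were not above background on any array. Of 5 epithelial markers KRT8 was above it on every array, KRT18 and KRT19 on 1 array (STK38 shRNA replicate 4), and EPCAM and CDH1 on none. The 5-gene epithelial mean was 2.19 to 2.41 on the non-target arrays and 2.27 to 2.66 on the STK38 shRNA arrays, and its part in the results was not tested. Background was set on each array from 23 control probe sets, at the level that 90% of them did not exceed (2.36 to 2.66). The difference between 3' and 5' probe sets, a sign of RNA quality, was 0.93 ± 0.096 for ACTB on the non-target arrays and 0.93 ± 0.093 on the STK38 shRNA arrays (SD, n = 5 each, two-sided exact permutation p = 0.976).

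Chaperone genes moved in both directions, and the share that moved was near that of all genes. Each gene is represented by its brightest probe set, a difference is STK38 shRNA minus non-target on the log2 scale, and a gene is called when its limma p, adjusted by Benjamini-Hochberg over all 7535 probe sets tested, is under 0.05. Of 53 member genes bright enough to test, 19 (35.8%) were called, against 31.0% of all 5403 genes tested. Lower with the STK38 shRNA were 13 members, a larger share than the 15.8% of all genes called lower. Higher were 6, a smaller share than the 15.2% of all genes called higher. By compartment, 43.3% of 30 genes tested were called in the cytosol, 26.7% of 15 in the ER and 16.7% of 6 at mitochondria. These shares were not compared by a test. At 14 of the 53 no array of one group reached the range of the other, against 23.0% of all genes. By probe set, 25 of 69 were called (36.2%, against 29.9% of all probe sets) and 18 did not overlap (22.1% of all probe sets). The median difference was -0.051 over the members and 0.019 over all genes. The remaining 10 genes (FKBP6, HSPH1, HSPA1B, HSPA1L, HSPA2, DNAJC6, HSPB2, HSPB6, FKBP9 and DNAJC4) were too dim to test, and 0 of them exceeded background on any array. With no filter limma called 0 of these 10, and 1 had an unadjusted p under 0.05.

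**Figure D1:**
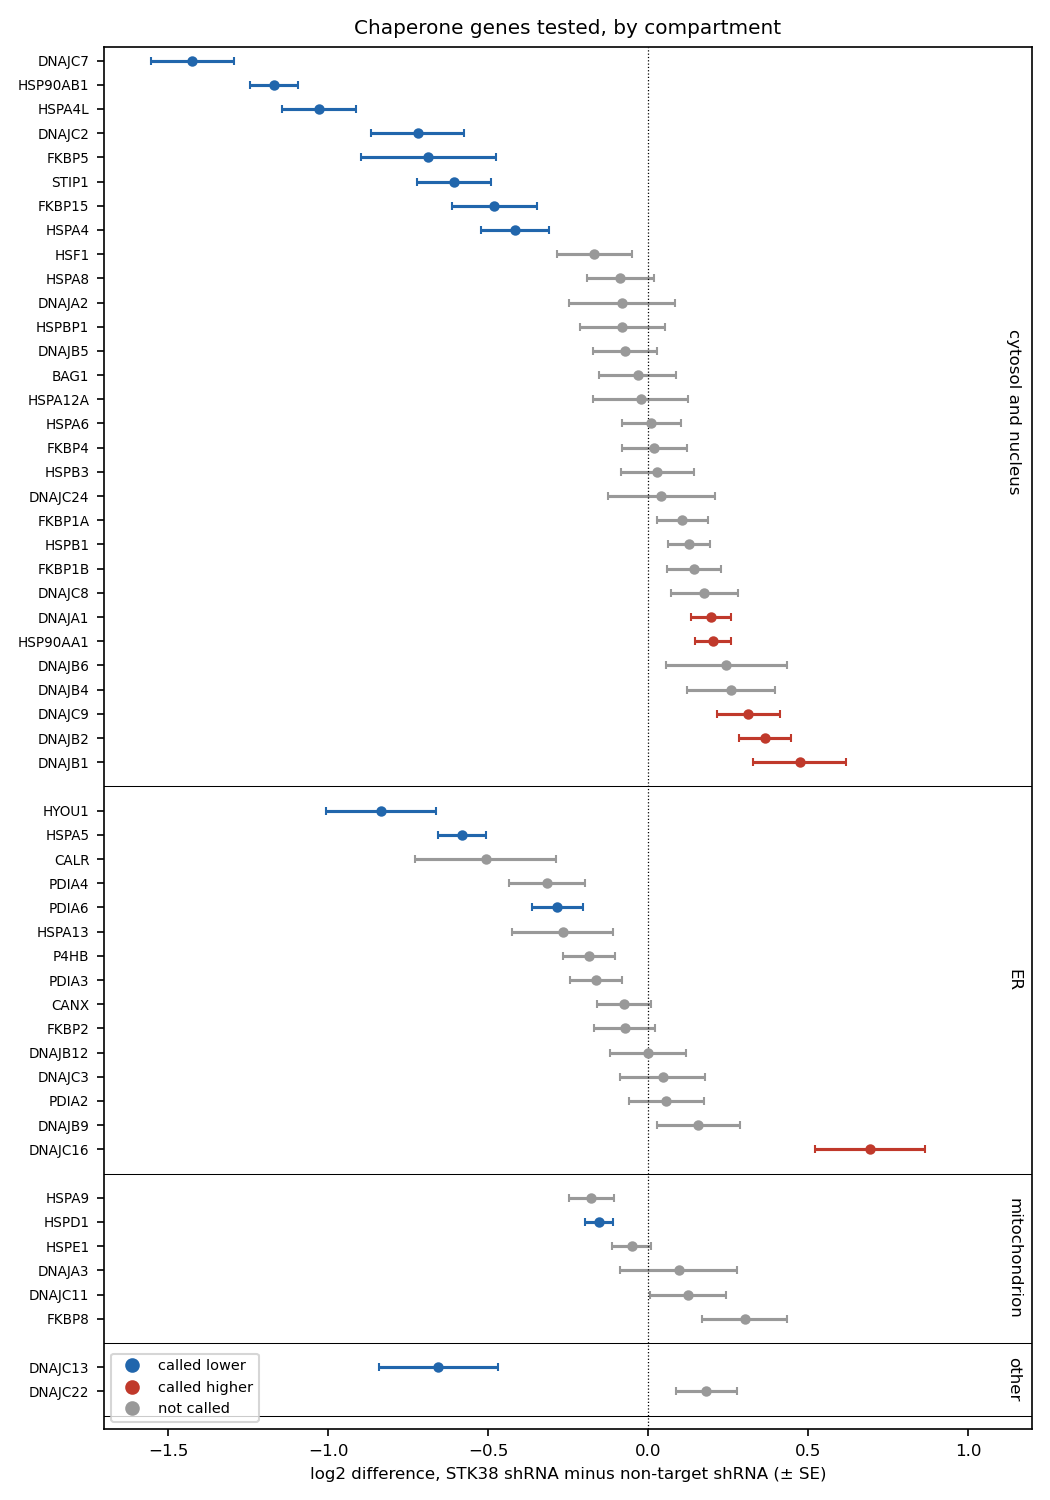
Log2 difference, STK38 shRNA minus non-target shRNA, ± SE for the 53 chaperone genes tested, grouped by compartment and ordered by size, with called genes coloured. The largest falls, DNAJC7 (-1.42), HSP90AB1 (-1.17) and HSPA4L (-1.03), are cytosolic, and the largest rise is DNAJC16 in the ER (0.69).

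The 2 HSP90 genes of the cytosol parted. HSP90AB1, which encodes the constitutive HSP90 beta, read 10.38, 10.24, 10.44, 10.48 and 10.55 on the non-target arrays and 9.32, 9.29, 9.42, 9.06 and 9.16 on the STK38 shRNA arrays. Every STK38 shRNA array was lower than every control. The fall was 2.25-fold (log2 difference -1.17, SE 0.074, limma adjusted p = 4.48e-08, the smallest among the members). A second bright probe set went from 10.25 ± 0.15 to 9.27 ± 0.099 (SD, n = 5 each), a fall of 0.98. A pair of dim ones were called lower too, but stood above background on 1 and 3 control arrays and on 0 and 2 STK38 shRNA arrays. HSP90AA1, the stress-inducible HSP90 alpha, read 9.82, 10.05, 9.92, 9.88 and 9.80 on the controls and 10.11, 10.09, 10.02, 10.07 and 10.18 with the STK38 shRNA. Here non-target replicate 2 lay among the STK38 shRNA arrays and the other controls lay below them. The rise was 1.15-fold (log2 difference 0.20, SE 0.056, adjusted p = 0.0122), and it was not called under a variance model without a trend (adjusted p = 0.0659). Within each array, HSP90AB1 minus HSP90AA1 was 0.19 to 0.76 on the controls and -1.02 to -0.60 on the STK38 shRNA arrays, a change of -1.37 (two-sided exact permutation p = 0.00794, the smallest that 5 against 5 arrays allow, and the same adjusted over the 2 gene pairs compared, which were chosen after their values were seen). Probe sets of HSP90 genes can bind transcripts of their pseudogenes, and the HSP90AA1 probe set is of the type marked as shared between transcripts. The brightest probe sets of DNAJC7, DNAJB1, DNAJC2 and HSPA9, among others, are of this type too.

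STIP1 and several co-chaperones were lower. STIP1 (also called HOP), the adaptor that holds HSP70 and HSP90 together, read 7.53, 7.01, 7.10, 7.32 and 7.46 on the controls and 6.72, 6.64, 6.89, 6.48 and 6.65 with the STK38 shRNA. The groups did not overlap, and the fall was 1.52-fold (log2 difference -0.61, SE 0.11, adjusted p = 0.000948). DNAJC7, a J protein with tetratricopeptide repeats that binds HSP70 and HSP90, had the largest change of all members. It read 5.84, 6.38, 6.48, 6.49 and 6.18 on the controls and 4.88, 4.93, 4.90, 4.87 and 4.68 with the STK38 shRNA, a fall of 2.68-fold (log2 difference -1.42, SE 0.13, adjusted p = 1.40e-06). Every control was above every STK38 shRNA array. This probe set is of the shared type, and the other DNAJC7 probe set was too dim to test (means 1.83 and 1.80).

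Of the 5 cytosolic genes tested of the FKBP family, named for binding of FK506, 2 were called lower and 0 higher. That is 40% called, against 31.0% of all genes, of which 15.8% were called lower. FKBP5, an HSP90 partner in steroid receptor complexes, read 3.47, 4.23, 3.87, 3.90 and 3.17 on the controls and 3.20, 3.43, 2.90, 2.44 and 3.22 with the STK38 shRNA. Non-target replicate 5 lay within the STK38 shRNA range and the other controls above it. FKBP5 exceeded background on 5 control and 4 STK38 shRNA arrays, so the size of its change is uncertain. It was called lower (log2 difference -0.69, SE 0.21, adjusted p = 0.0220), but not without STK38 shRNA replicate 3 (adjusted p = 0.0522) or non-target replicate 2 (0.0625), 3 (0.0532) or 4 (0.0560). FKBP4, its paralogue in the same complexes, read 7.48, 7.45, 7.62, 7.64 and 7.78 against 7.68, 7.57, 7.89, 7.55 and 7.38, with wide overlap (log2 difference 0.020, SE 0.10, adjusted p = 0.919). FKBP15, which acts in endosome traffic, fell from 3.80 ± 0.19 to 3.32 ± 0.19 (SD, n = 5 each, adjusted p = 0.0123) without overlap. FKBP1A, the target of FK506 and rapamycin, differed by 0.11 (adjusted p = 0.366).

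Both cytosolic nucleotide exchange factors of the HSP110 type that could be tested fell, while the third, HSPH1, was too dim (2.08, 1.85, 2.12, 2.0 and 2.07 on the controls against 1.81, 1.75, 1.71, 1.78 and 2.0, all below background). The tested ones are only 2 genes, and of all genes 31.0% were called, 15.8% lower. HSPA4L read 3.37, 3.56, 3.36, 3.30 and 3.15 on the controls and 2.16, 2.48, 2.25, 2.18 and 2.53 with the STK38 shRNA. No array overlapped, and the measured fall was 2.04-fold (log2 difference -1.03, SE 0.12, adjusted p = 1.07e-05). Its size is uncertain because 2 of the 5 STK38 shRNA arrays exceeded background. HSPA4 read 6.11, 6.06, 6.19, 5.93 and 6.08 against 5.61, 5.88, 5.66, 5.41 and 5.73, again without overlap. It fell 1.33-fold (log2 difference -0.42, SE 0.11, adjusted p = 0.00781), with -0.31 at a second probe set and 0.0042 at the third, which did not exceed background on any array. Averaging the 3 probe sets gave an adjusted p of 0.0649. Of the members, the exchange factors BAG1 and HSPBP1, of other types, did not pass the test. BAG1 read 5.81, 5.53, 5.55, 5.75 and 5.76 against 5.77, 5.77, 5.48, 5.36 and 5.85 (adjusted p = 0.889), and HSPBP1 had a difference of -0.080 (adjusted p = 0.723).

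Few probe sets could be used for the HSP70 genes of the cytosol. HSPA8, the constitutive HSC70, is named alone by 1 dim probe set. Another 4, with means over all arrays of 9.27 to 10.82, are annotated jointly to HSPA8 and small nucleolar RNA genes and were left out by the rule, so the dim probe set does not give the level of HSPA8. It read 2.86, 2.81, 2.91, 2.78 and 2.81 on the controls and 2.80, 2.85, 2.91, 2.47 and 2.70 with the STK38 shRNA (adjusted p = 0.616). HSPA6 and HSPA12A were not above background on any array. The stress-inducible HSPA1B was too dim to test, at 1.58, 1.78, 1.70, 1.69 and 1.64 against 1.6, 1.65, 1.82, 1.75 and 1.62, which is below background on all 10 arrays. In all, 10 probe sets whose annotation joins a member to other genes were left out. No probe set names HSPA1A, HSP90B1, HSF2 or DNAJB11 alone. HSPB1, the small heat shock protein that holds unfolded proteins without ATP, read 9.82, 9.65, 9.63, 9.60 and 9.51 on the controls and 9.81, 9.77, 9.90, 9.76 and 9.61 with the STK38 shRNA. The groups overlapped (log2 difference 0.13, SE 0.066, adjusted p = 0.174), and it was called higher after quantile normalization (adjusted p = 0.0441). HSF1, the heat shock transcription factor, read 5.66, 5.62, 5.72, 5.69 and 6.06 against 5.61, 5.60, 5.83, 5.38 and 5.50 (log2 difference -0.17, SE 0.12, adjusted p = 0.342), and -0.28 at its other probe set (adjusted p = 0.171).

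J proteins of the cytosol and nucleus went both ways. Of the 12 tested, 4 were called higher and 2, DNAJC7 and DNAJC2, lower, which is 50% called against 31.0% of all genes. Of all genes, 15.2% were called higher and 15.8% lower. DNAJB1, the heat-inducible HSP40, read 5.11, 5.59, 5.74, 5.86 and 5.26 on the controls and 6.00, 6.07, 6.18, 5.75 and 5.93 with the STK38 shRNA. Only STK38 shRNA replicate 4 fell within the control range, below non-target replicate 4. The rise was 1.39-fold (log2 difference 0.47, SE 0.15, adjusted p = 0.0226), and the call was lost without STK38 shRNA replicate 2 (adjusted p = 0.0523) or 3 (0.0597) or non-target replicate 1 (0.0628) or 5 (0.0591). DNAJA1, a farnesylated partner of HSC70, read 8.78, 8.62, 8.71, 8.83 and 8.62 against 8.93, 8.86, 8.94, 8.90 and 8.91. The groups stood apart by a narrow margin. The rise was 1.15-fold (log2 difference 0.20, SE 0.061, adjusted p = 0.0240), with 0.37 at its other probe set. It was not called without STK38 shRNA replicate 1 (adjusted p = 0.0533) or 5 (0.0510) or non-target replicate 2 (0.0571), nor with arrays centred on their median (0.0729) or a variance model without a trend (0.0632).

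Among the other J proteins, DNAJC2, a ribosome-bound partner of HSP70 that meets the nascent chain, read 4.35, 4.33, 4.81, 4.54 and 4.73 on the controls and 3.83, 4.02, 3.61, 4.12 and 3.58 with the STK38 shRNA. Its fall was 1.65-fold without overlap (log2 difference -0.72, SE 0.15, adjusted p = 0.00163). DNAJC9, a histone chaperone of the nucleus, rose from 7.0 ± 0.20 to 7.31 ± 0.067 (SD, n = 5 each, adjusted p = 0.0259). That call was lost without STK38 shRNA replicate 2 (adjusted p = 0.0614) or 3 (0.0550), without non-target replicate 2 (0.0686) or 5 (0.0571), and with no filter (0.0506). DNAJB2 was called higher (adjusted p = 0.00348) but exceeded background on 0 arrays of either group, so no size is given. With 6 reverse-strand ACTB and GAPDH controls left out of the background, it exceeded the lower level on 2 control and 5 STK38 shRNA arrays. DNAJB6, which suppresses aggregation, had 0.24 (adjusted p = 0.393), and 0.44 without STK38 shRNA replicate 4 (adjusted p = 0.00831). It was also called higher with array weights (adjusted p = 0.00774). DNAJA2, DNAJB4, DNAJB5, DNAJC8 and DNAJC24 had differences between -0.082 and 0.26 and were not called, with DNAJB4 going from 0.26 to 0.14 without STK38 shRNA replicate 4. DNAJC13, an endosomal J protein counted outside the compartments, read 3.61, 3.44, 3.56, 3.90 and 4.11 against 3.32, 2.97, 3.22, 2.43 and 3.41, a fall of 1.58-fold (log2 difference -0.66, adjusted p = 0.0147) by a narrow margin. It exceeded background on 5 control and 4 STK38 shRNA arrays, so its size is uncertain. Without STK38 shRNA replicate 4, the lowest, the difference was -0.50 (adjusted p = 0.00974).

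**Figure D2:**
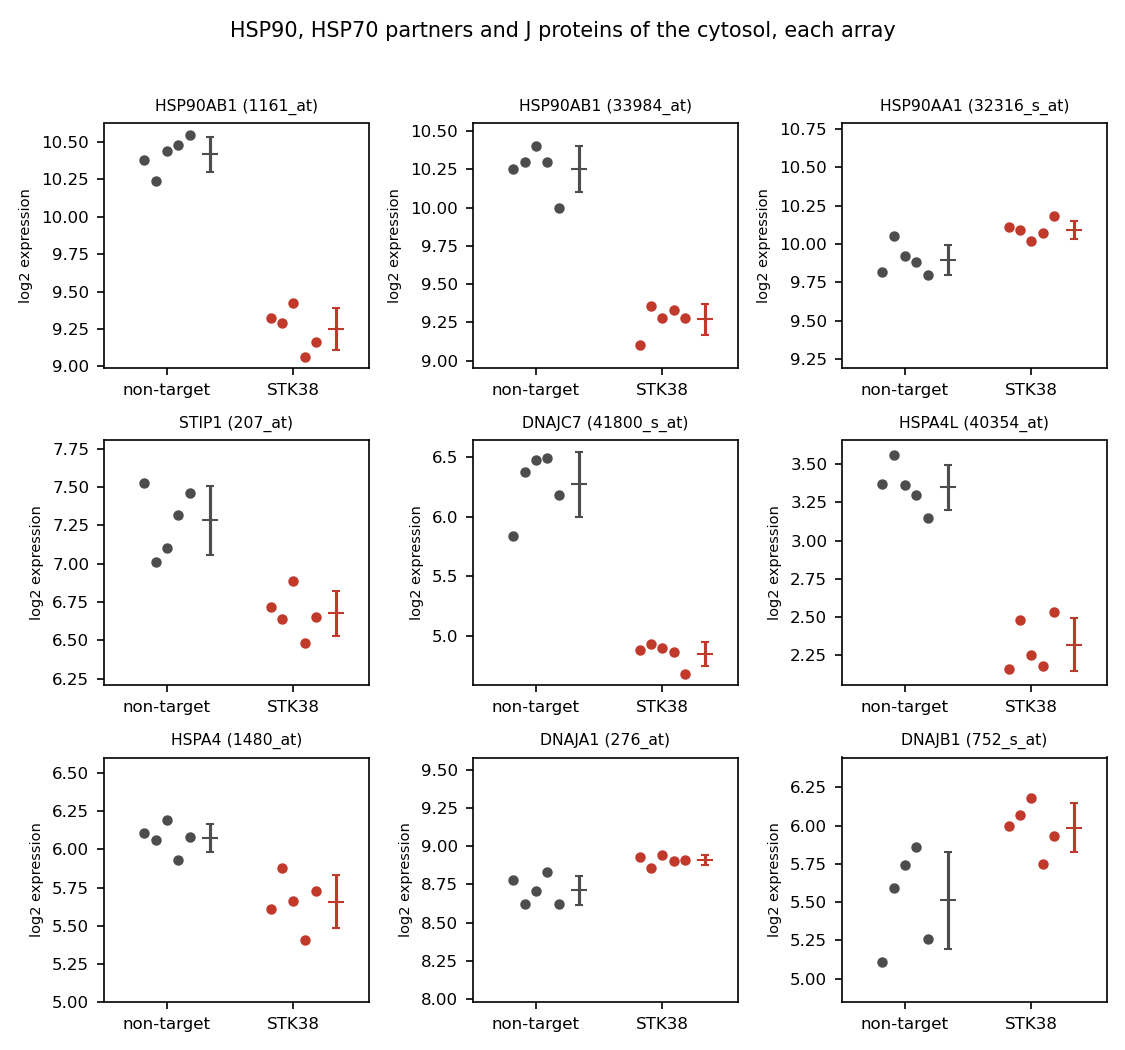
Deposited log2 expression on each array for 9 probe sets of cytosolic chaperones, non-target shRNA in grey and STK38 shRNA in red, with mean ± SD beside the points (n = 5 each); each panel has its own axis. HSP90AB1, STIP1, DNAJC7, HSPA4L and HSPA4 separate downwards, HSP90AA1 and DNAJB1 overlap at 1 array, and DNAJA1 separates upwards.

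In the ER, 3 of 15 tested genes fell, 1 rose and 11 did not pass the test. That is 26.7% called, below the 31.0% of all genes. Differences were negative for 10 of the 15 (66.7%, against 46.8% of all genes tested), with a median of -0.16. HSPA5, BiP, the ER's HSP70 and binder of free immunoglobulin heavy chains, read 8.85, 8.65, 8.76, 8.80 and 8.99 on the controls and 8.27, 8.32, 8.14, 8.29 and 8.13 with the STK38 shRNA. No array overlapped, and the fall was 1.5-fold (log2 difference -0.58, SE 0.074, adjusted p = 3.29e-05). HYOU1 (GRP170), the exchange factor of BiP, read 4.81, 4.60, 5.05, 4.85 and 4.78 against 4.20, 4.15, 4.33, 3.32 and 3.92. It fell 1.78-fold without overlap (log2 difference -0.83, SE 0.17, adjusted p = 0.00189). STK38 shRNA replicate 4 was the lowest, and the difference without it was -0.67 (adjusted p = 0.000265). HSPA13, a second HSP70 of the microsomes, had -0.27 (adjusted p = 0.247), and -0.15 without that array.

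Disulphide isomerases, which form and shuffle the disulphide bonds of secreted proteins, had small differences. PDIA6 read 8.93, 8.68, 8.83, 8.79 and 8.93 on the controls and 8.60, 8.61, 8.62, 8.29 and 8.63 with the STK38 shRNA. It fell 1.22-fold without overlap (log2 difference -0.28, SE 0.080, adjusted p = 0.0137), and its other probe set was too dim to test. PDIA4 read 4.72, 5.05, 4.65, 4.79 and 4.80 against 4.48, 4.58, 4.61, 4.27 and 4.48. Its groups did not overlap either, but the test was just missed (log2 difference -0.32, SE 0.12, adjusted p = 0.0556), and 4 alternatives called it lower, among them centring of the arrays (0.0298) and array weights (0.0452). PDIA3, the partner of calnexin and calreticulin, read 6.69, 6.68, 6.63, 6.74 and 6.56 against 6.5, 6.47, 6.58, 6.52 and 6.43, with overlap at 1 array of each group (log2 difference -0.16, SE 0.081, adjusted p = 0.158). P4HB, PDI itself, read 8.92, 9.11, 9.17, 8.98 and 8.73 against 8.80, 8.94, 8.78, 8.72 and 8.76. At that probe set it was not called (log2 difference -0.18, SE 0.081, adjusted p = 0.108). It was called lower without non-target replicate 5 (adjusted p = 0.0164), with array weights (0.0283) and with its probe sets averaged (0.0133), and at another probe set (log2 difference -0.28, adjusted p = 0.0165). PDIA2 was not above background on any array.

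Lectin chaperones hold glycoproteins until they fold. CANX, calnexin, read 9.01, 9.46, 9.27, 9.16 and 9.02 on the controls and 9.09, 9.18, 9.0, 9.09 and 9.19 with the STK38 shRNA, and the groups overlapped fully (log2 difference -0.075, SE 0.083, adjusted p = 0.576). CALR, calreticulin, read 4.90, 4.56, 4.80, 4.88 and 4.70 against 4.39, 4.22, 5.09, 3.47 and 4.13. STK38 shRNA replicate 3 was the highest of all arrays and the other 4 lay below every control. With all arrays weighted equally it was not called (log2 difference -0.51, SE 0.22, adjusted p = 0.102). It was called lower with array weights (-0.41, adjusted p = 0.0379) and without STK38 shRNA replicate 3 (-0.72, adjusted p = 0.00764), and without replicate 4 the difference was -0.31 (adjusted p = 0.148). Its dim probe set had -0.32 (adjusted p = 0.0654).

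Of 4 J proteins of the ER tested, 0 were called lower by limma and 1, DNAJC16, was called higher (25% called, against 31.0% of all genes). DNAJC16 was also the 1 gene with an unadjusted p under 0.05. DNAJB9 (ERdj4), which recruits BiP to clients, read 3.41, 3.01, 3.07, 2.91 and 3.20 on the controls and 3.32, 3.31, 3.10, 3.12 and 3.54 with the STK38 shRNA (log2 difference 0.16, SE 0.13, adjusted p = 0.432). DNAJC3 (p58IPK) read 2.40, 2.11, 2.42, 2.51 and 2.45 against 2.30, 2.43, 2.34, 2.90 and 2.14, and exceeded background on 2 arrays of each group (adjusted p = 0.850). DNAJC16, a membrane J protein, read 2.47, 2.61, 2.58, 2.22 and 2.48 against 3.22, 3.45, 3.45, 2.44 and 3.28. Here STK38 shRNA replicates 1, 2, 3 and 5 were above every control, and replicate 4 lay within the range of the controls. The rise was 1.62-fold (log2 difference 0.69, SE 0.17, adjusted p = 0.00656), and 0.88 without replicate 4 (adjusted p = 3.84e-06). It was above background on 3 control and 4 STK38 shRNA arrays, so its size is uncertain. DNAJB12 (0.00076) and FKBP2 (-0.073) were not called.

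Of 6 mitochondrial chaperone genes tested, 1 was called lower (16.7%, against 31.0% of all genes) and 0 higher, with differences from -0.18 to 0.30. HSPD1, the HSP60 chaperonin, read 11.32, 11.20, 11.34, 11.29 and 11.19 on the controls and 11.19, 11.09, 11.17, 11.05 and 11.09 with the STK38 shRNA. The ranges met at 11.19, and the fall was 1.11-fold (log2 difference -0.15, SE 0.044, adjusted p = 0.0160). It was not called with arrays centred on their median (adjusted p = 0.104), after quantile normalization (0.145) or with a variance model without a trend (0.146). HSPE1, its lid, read 9.38, 9.32, 9.34, 9.28 and 9.48 against 9.33, 9.43, 9.19, 9.24 and 9.35 (log2 difference -0.051, SE 0.061, adjusted p = 0.607). HSPA9, mortalin, read 8.64, 8.76, 8.77, 8.50 and 8.57 against 8.43, 8.53, 8.37, 8.53 and 8.51, with overlap (log2 difference -0.18, SE 0.071, adjusted p = 0.0771). It was called lower with array weights and without non-target replicate 4 (adjusted p = 0.0478 for the latter). DNAJA3, the J protein of HSPA9, read 2.49, 2.50, 2.59, 2.55 and 2.34 against 2.57, 2.44, 2.29, 3.42 and 2.21 (log2 difference 0.095, adjusted p = 0.767, and -0.11 without STK38 shRNA replicate 4, the highest), and DNAJC11 and FKBP8 were not called. HSPA5 minus HSPA9, the HSP70s of ER and mitochondrion, was -0.11 to 0.42 on the controls and -0.37 to -0.16 on the STK38 shRNA arrays, a change of -0.40 (two-sided exact permutation p = 0.00794, and the same adjusted over the 2 pairs). This pair too was chosen after its values were seen, so its p-value is not an independent test.

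**Figure D3:**
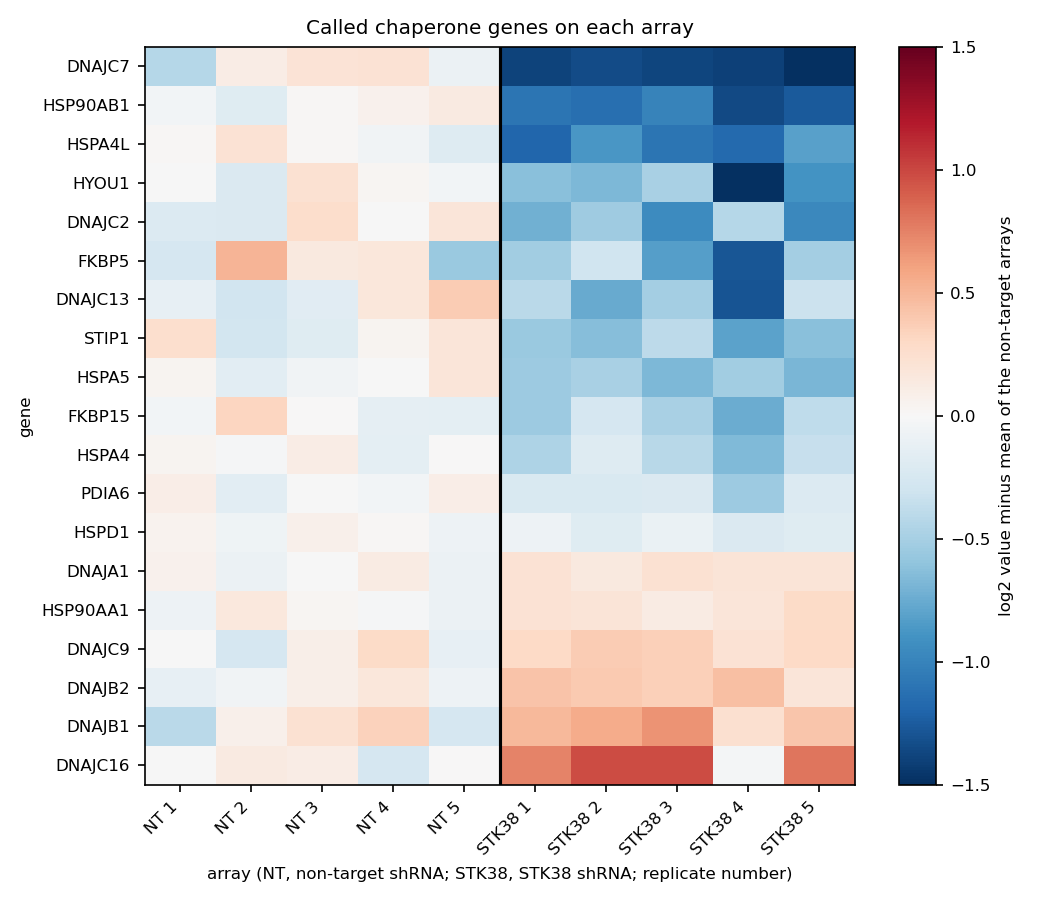
Log2 value minus the mean of the non-target arrays for the 19 called chaperone genes (rows, ordered by difference) on each of the 10 arrays (columns). The 13 genes called lower are blue on the STK38 shRNA arrays and the 6 called higher are red. The exception is DNAJC16 on STK38 shRNA replicate 4, at 2.44 against a non-target mean of 2.47. STK38 shRNA replicate 4 is the lowest of its group for 12 of the 19, HYOU1, DNAJC13, DNAJB1 and DNAJC16 among them.

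Known control elements are shown for members that moved and for relatives that did not, from RefSeq promoter windows (GRCh38.p14) of the 250 bases before each annotated start site. Windows were found for 56 of the 63 genes, 82 in all since many genes have several start sites. The ER stress element, to which ATF6 and NF-Y bind, was searched as CCAAT, any 9 bases and CCACG, on both strands. It was found in 0.074% of all 35116 windows and in those of 4 members, HSPA5 and PDIA6, which fell, and CALR and CANX, which were not called. The sites are given 5' to 3' on the strand of the gene, with the motif in capitals and 5 bases on each side:
HSPA5: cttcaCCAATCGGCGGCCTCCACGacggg
PDIA6: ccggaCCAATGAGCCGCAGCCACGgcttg
CANX: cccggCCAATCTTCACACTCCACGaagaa
CALR: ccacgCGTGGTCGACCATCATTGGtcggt
These lie at chr9:125241386-125241414 (minus strand), chr2:10812848-10812876 (minus), chr5:179698773-179698801 (plus) and chr19:12938379-12938407 (plus). No match was found for HYOU1, which fell most in the ER, and the 7 members without a window could not be searched.

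The whole HSPA5 window, chr9:125241344-125241593 on the minus strand, is shown because BiP had the smallest adjusted p of the ER genes. Its single full match, in capitals, runs from 66 to 48 bases before the start site:
HSPA5: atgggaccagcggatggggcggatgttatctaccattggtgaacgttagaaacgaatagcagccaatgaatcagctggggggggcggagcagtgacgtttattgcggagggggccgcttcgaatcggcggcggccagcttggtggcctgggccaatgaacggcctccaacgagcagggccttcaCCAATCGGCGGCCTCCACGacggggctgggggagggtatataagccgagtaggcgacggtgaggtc

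The heat shock element, the binding site of HSF1, was searched as 3 units in turn, GAA, TTC and GAA or TTC, GAA and TTC, with any 2 bases between units, each order being the reverse complement of the other. It was in 0.441% of all windows and in those of 6 members. Of these HSP90AB1 and HSPD1 fell, HSP90AA1 rose, and HSPA8, HSPA6 and DNAJB6 were not called. The HSP90 pair, whose changes were opposite, both hold it, shown with 8 bases on each side:
HSP90AA1: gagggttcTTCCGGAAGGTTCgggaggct
HSP90AB1: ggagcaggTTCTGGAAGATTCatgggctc
HSP90AB1: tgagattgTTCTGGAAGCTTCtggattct
They lie at chr14:102087112-102087140 (minus strand), chr6:44247770-44247798 and chr6:44247823-44247851 (plus). The E-box CACGTG, a palindrome bound by MYC and MAX among others, was in 6.34% of all windows and in 8 of the 82 member windows (9.76%), one for each of 8 genes. Of those, HSPD1 and FKBP5 fell, DNAJC16 rose, and HSPA9, HSPE1, DNAJB9, DNAJC8 and PDIA2 were not called. A match describes letters and does not show binding.

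Other genes of these pathways, from a list that shares no gene with the members, were called in shares of 40% in the cytosol, 31.2% in the ER and 25% in mitochondria, against 31.0% of all genes. In the cytosol 10 of 17 listed genes were tested, of which 3 fell and 1 rose. CDC37, which brings kinases to HSP90, read 6.41, 6.36, 6.42, 6.38 and 6.48 on the controls and 5.96, 6.16, 6.01, 5.10 and 5.64 with the STK38 shRNA, a fall of 1.56-fold without overlap (log2 difference -0.64, adjusted p = 0.00777). Without STK38 shRNA replicate 4, the lowest, the difference was smaller, at -0.47 (adjusted p = 0.00202). PTGES3 (p23), which stabilises the closed form of HSP90, fell from 8.83 ± 0.11 to 8.44 ± 0.13 (SD, n = 5 each, adjusted p = 0.00133). BAG2, an HSP70 exchange factor, was above background on 5 control and 0 STK38 shRNA arrays and was at least 1.92-fold lower (adjusted p = 3.42e-05). ST13 (HIP), which slows release of ADP from HSP70, rose 1.42-fold (log2 difference 0.50, SE 0.084, adjusted p = 0.000335). PPP5C, the HSP90-bound phosphatase, had -0.47 (adjusted p = 0.0721), was called lower in 4 alternatives, and had -0.29 without STK38 shRNA replicate 4 (adjusted p = 0.0916).

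In the ER list 16 of 29 genes were tested, of which 4 fell and 1 rose. The transcription factors XBP1 and ATF4 fell, as did EDEM1, which takes misfolded glycoproteins to degradation, and the cyclophilin PPIB. EDEM1 read 5.52, 5.14, 5.26, 5.05 and 5.44 on the controls and 4.78, 4.43, 4.73, 4.12 and 4.92 with the STK38 shRNA, a fall of 1.61-fold without overlap (adjusted p = 0.00362). XBP1 fell by 0.94 (adjusted p = 4.87e-07) and ATF4 by 0.61 (adjusted p = 6.35e-05), both without overlap. PPIB fell by 0.26 with overlap (adjusted p = 0.0186), and the call was lost without STK38 shRNA replicate 5 (0.0533), after centring of the arrays and after quantile normalization (up to 0.0680). PPP1R15A (GADD34), which leads phosphatase to eIF2 alpha, read 2.56, 2.73, 2.66, 2.74 and 2.35 on the controls and 3.02, 3.33, 3.09, 2.77 and 3.36 with the STK38 shRNA. All STK38 shRNA arrays were the higher (log2 difference 0.51, SE 0.13, adjusted p = 0.00786). ATF6 (-0.26, adjusted p = 0.151), DDIT3 (-0.038, adjusted p = 0.814) and HERPUD1 (0.068, adjusted p = 0.768) were not called. Nor was CREB3 (0.31, adjusted p = 0.114), which was called higher in 3 alternatives, among them the fit without STK38 shRNA replicate 4 (adjusted p = 0.00489).

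Of the mitochondrial list 8 of 10 genes were tested, of which 2 fell and 0 rose. TIMM44, which tethers HSPA9 to the import channel, read 5.89, 5.96, 5.67, 5.69 and 5.76 against 5.10, 5.45, 5.32, 5.13 and 5.18, a fall of 1.47-fold without overlap (adjusted p = 0.00122). The protease gene HTRA2 fell by 0.48 with overlap (adjusted p = 0.0175, and 0.0519 without non-target replicate 3). TRAP1, the mitochondrial HSP90, had -0.068 (SE 0.083, adjusted p = 0.616). CLPX had 0.28 without overlap (adjusted p = 0.0758). It was called higher in 5 alternatives, among them array weights (adjusted p = 0.0176) and the fit without STK38 shRNA replicate 4 (0.0351).

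**Figure D4:**
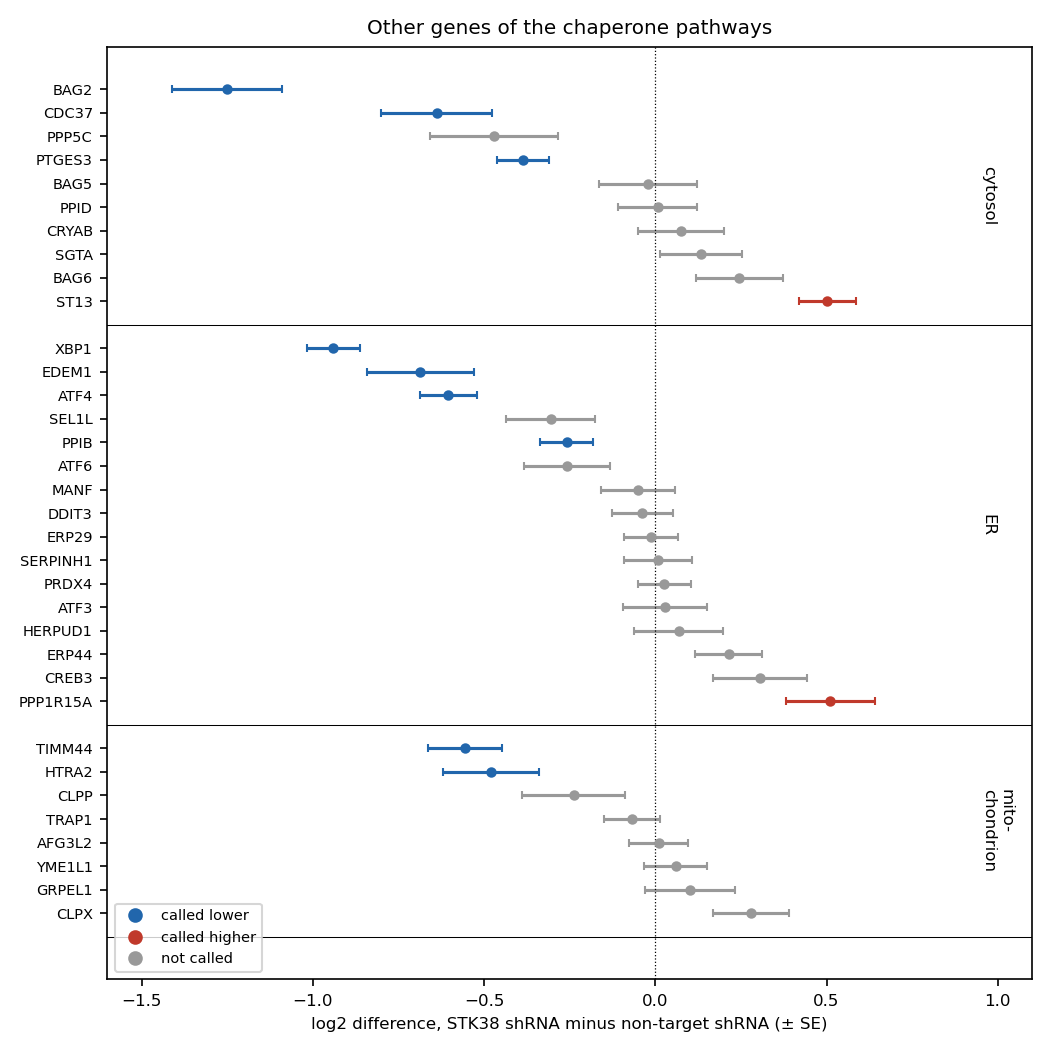
Log2 difference, STK38 shRNA minus non-target shRNA, ± SE for the 34 other chaperone pathway genes tested, by compartment, with called genes coloured. BAG2 and XBP1 lie farthest to the left, where the point of BAG2 rests on STK38 shRNA arrays at background and its fall is known only as at least 1.92-fold, and PPP1R15A (0.51) and ST13 (0.50) are the genes called higher.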

How the data were processed

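Total RNA of ST486 cells was hybridised to 1-colour Affymetrix HG-U95Av2 arrays. The authors deposited log2 values, made with GCRMA and affy per the submitters' processing notes (no version given); GCRMA corrects background by probe sequence, normalizes across arrays and shrinks differences of dim probe sets. That the scale is log2 follows from this tool and the range, 0.35 to 12.65. The authors' normalization was kept, and scanner files were not analysed here.

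Gene names came from the annotation of the array platform, and updating by Entrez identifier changed 0 member names. Probe sets with a mean under the 40th percentile (1.93) were left out. Groups were compared with limma 3.58.1 in R 4.3.3 (lmFit and eBayes, trend on, without covariates, on 8 residual degrees of freedom), and p-values of 7535 probe sets were adjusted by Benjamini-Hochberg, 0.05 being the threshold. All adjusted p-values of genes are limma's. The steps were tested on simulated data. Where a gene exceeded background in 1 group only, the fold is a bound ("at least") against the higher of background and signal. Figures used matplotlib 3.10.9.

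Every gene that the symbol rule found was described by its brightest probe set, with all arrays given for a fixed set of core chaperones and for called genes with a difference of at least 0.5. Members and lists were chosen with earlier results of these data known. Alternatives changed the scaling, weights of arrays, the filter, the model of variance, the choice of probe set, the threshold, a replicate block and each array left out. Motifs were counted on the RefSeq windows.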

Additional observations from a re-analysis of the deposited data

Results flagged for a closer look

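Within a group of 5 arrays, 12 of 106 pairs of a tested gene and a group held an array far from the other 4, where chance gives about 1 in 20. STK38 shRNA replicate 4 was that array in 8 of them. It was the lowest for PDIA6 (8.29, others 8.60 to 8.63), DNAJC16 (2.44, others 3.22 to 3.45), DNAJB6 (3.41, others 4.26 to 4.53) and HSPBP1 (2.29, others 2.77 to 2.90). It was the highest for HSPA12A (2.63, others 1.69 to 1.82), HSPA6 (2.32, others 1.88 to 1.98), HSPB3 (2.66, others 2.01 to 2.16) and PDIA2 (2.60, others 1.85 to 2.05), all dim genes. Its background was 2.65, where the other STK38 shRNA arrays had 2.37 to 2.44 and the controls 2.36 to 2.66. The part of this array's overall shift in these values was not tested.

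STK38 shRNA replicate 3 was the highest for FKBP1A (7.96, others 7.65 to 7.70) and replicate 5 the lowest for DNAJC7 (4.68, others 4.87 to 4.93). Among the controls, replicate 5 was the highest for HSF1 (6.06, others 5.62 to 5.72) and replicate 2 the lowest for DNAJC3 (2.11, others 2.40 to 2.51).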

How the results depend on the processing

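Of 19 called genes, 11 kept their call in all 19 alternatives that refit the data: HSP90AB1, DNAJC7, HSPA4L, HSPA5, STIP1, DNAJC2, HYOU1, DNAJC16, FKBP15, PDIA6 and DNAJC13. DNAJB2 kept it in the 18 that tested it and was too dim for the 60th percentile filter. No called gene changed direction. Over arrays left out singly, all members had 4 to 7 higher and 12 to 14 lower (medians -0.070 to -0.031), the cytosol 3 to 6 and 7 to 9 (-0.050 to 0.033), the ER 1 and 3 to 4 (-0.19 to -0.14) and mitochondria 0 and 1 to 2 (-0.074 to 0.040). In these fits 30.2% to 39.6% of members were called, against 26.7% to 38.8% of all genes, and both were highest without STK38 shRNA replicate 4. The 3 higher in the cytosol came without STK38 shRNA replicate 2 or 3 or non-target replicate 2 or 5, the 2 lower in mitochondria without non-target replicate 4, and the -0.074 without STK38 shRNA replicate 4. At an adjusted p under 0.01, all members had 2 higher and 8 lower, the cytosol 1 higher and mitochondria 0 lower. The share of all genes called at that threshold was not counted. A variance model without a trend gave 3 higher in the cytosol and 0 lower in mitochondria, as did median centring and quantile normalization for mitochondria (0 lower). Array weights gave 6 lower in the ER (median -0.095) and 2 lower in mitochondria (median -0.056), and averaging probe sets gave 5 lower in the ER. The 60th percentile filter put the mitochondrial median at -0.051 over 5 genes. The causes were not tested. Array weights called 24 members and 40.7% of all genes.

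Deviations of same-numbered arrays correlated at -0.21 to 0.19. Those of differently numbered arrays were not computed, so whether replicate numbers pair the arrays is not settled. With the replicate block, 6 members were higher and 13 lower, the same 19 genes. The number of arrays limits the precision. Among the called members, signals near background limit the size of changes for HSPA4L, DNAJC16, DNAJB2, FKBP5 and DNAJC13.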
